A study of Drosophila melanogaster with 9 samples.

Results

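Eye-antennal imaginal discs of female *Drosophila melanogaster* larvae at mid L3 (96h after egg laying, AEL) were compared with those at late L3 (120h AEL) across all genes, which used 6 of the 9 libraries of the series (the other 3 are from 72h AEL). L3 is the last larval stage. The larvae of both stages were OregonR, a wild-type laboratory strain. Each stage had 3 libraries (A, B and C), described in the study as biological replicates, and each library was made from a pool of 80 to 90 discs at 96h AEL and of 40 to 50 discs at 120h AEL. A value therefore belongs to whole discs, and neither to a compartment nor to an animal. The 120h AEL libraries are labelled as a reanalysis of samples deposited before, and those of 96h AEL are not, so stage and deposit cannot be told apart.

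The eye-antennal disc forms the compound eye, the antenna, the maxillary palp and most of the head cuticle. In the eye part the morphogenetic furrow, driven by Hedgehog and Dpp, crosses the disc from posterior to anterior: cells ahead of it divide under the retinal determination genes, an R8 founder cell is chosen within it by the proneural gene *atonal* and Notch, and cells behind it are recruited to ommatidia by EGF receptor and Sevenless signalling. Late in L3 the steroid hormone ecdysone starts the program that leads to pupariation, in which discs evert and replace their apical matrix.

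RNA was measured as read counts per gene, with 17675472 to 37305763 counts per library. Levels are given as CPM, counts relative to the library's depth after TMM scaling, always in the order A, B and C. At 10 CPM the counting error was 5.17% to 7.61%, and 3 counts were worth 0.0801 to 0.174 CPM. Fold changes are 120h over 96h AEL on the log2 scale with their standard error (SE), and a single value in parentheses after a gene is its log2 fold change. Adjusted p-values come from the quasi-likelihood test of edgeR, adjusted by Benjamini-Hochberg over all genes tested. A gene was called when its adjusted p-value was under 0.05. Genes that define this disc were present throughout, with *eya* at 406 to 564 CPM and *Dll* at 44.5 to 84.8 CPM over the 6 libraries. Among the 120h AEL libraries replicate B stood apart: 8.66% of its counts came from 13 genes of the mitochondrial genome. This share was 0.942% to 3.44% in the other libraries of both stages, and fat body transcripts were fewest in 120h AEL replicate B. The largest distance within a stage in multidimensional scaling (top 500 genes) was 3.40, between replicates A and C of 96h AEL. For 120h AEL replicate B it was 2.62 to A and 2.37 to C. The log2 level of the shortest coding sequences minus that of the longest was −0.58 in 96h AEL replicate A but 0.49 in C. It was 0.55 in 120h AEL replicate B and −0.23 to −0.02 in the rest.

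Of 13676 genes, 8201 passed the filter on low counts and were tested. From 96h to 120h AEL, 688 genes (8.39%) rose and 517 (6.3%) fell, 1205 in all (14.7%). The counts of called members in each list below stand against these shares. Of these, 495 (6.04%) rose and 363 (4.43%) fell by more than 2-fold, 858 in all (10.5%). At an unadjusted p-value under 0.05 there were 2221 (27.1%). Over all genes tested the median was 0.01. The 3 libraries of one stage lay above the 3 of the other in 2774 genes (33.8%), with 1481 (18.1%) higher and 1293 (15.8%) lower at 120h AEL, and all 1205 called genes were among them. Scaling by library totals alone gave 1841 higher and 1011 lower instead. The number of called genes was 746, 539 and 1336 when replicate A, B or C of 96h AEL was left out, and 672, 961 and 556 when that of 120h AEL was.

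**Figure D1:**
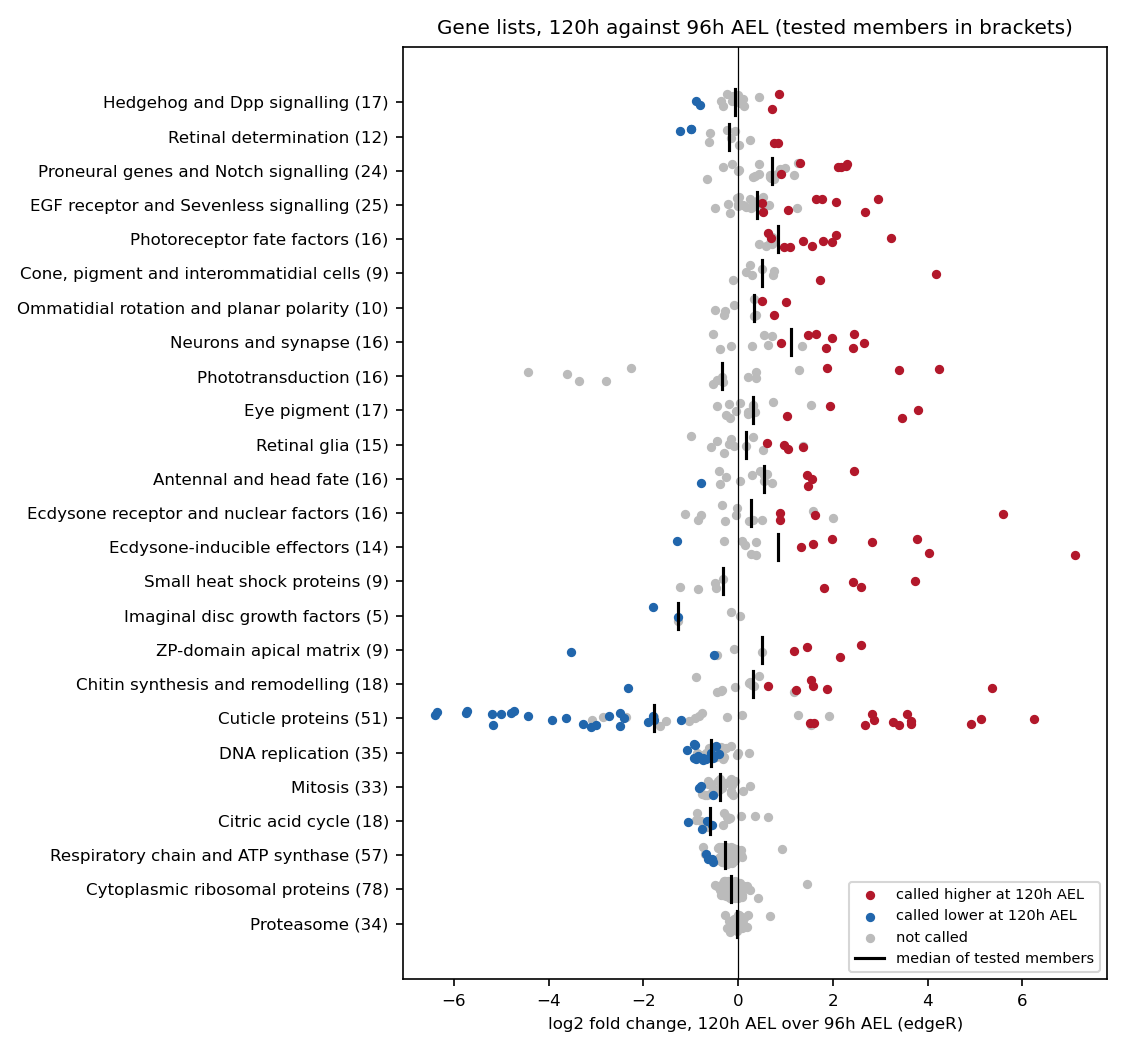
Log2 fold change (120h over 96h AEL, horizontal axis) of each tested member of 25 gene lists (rows); red points were called higher at 120h AEL, blue points lower and gray points not called, and black bars are medians. Photoreceptor and neuronal lists hold red and no blue points, DNA replication and mitosis hold blue and no red points, and cuticle proteins spread from −6.39 to 6.25.

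*Optix* and *eyeless*, which act ahead of the furrow, fell. *Optix* (FBgn0025360), a Six-family retinal determination factor, stood at 166, 269.8 and 190.4 CPM at 96h AEL and at 79.3, 89.3 and 98.8 CPM at 120h AEL. *eyeless* (*ey*, FBgn0005558), the Pax6 factor of undifferentiated eye cells, stood at 293, 374 and 244 CPM and then at 147, 164 and 145 CPM. For both genes every late library lay below every earlier one, and the log2 fold changes were −1.23, SE 0.21, adjusted p = 0.0109 for *Optix* and −1.0, SE 0.18, adjusted p = 0.0145 for *ey*. *dachshund* (*dac*), a partner of *eya* and *so* that is on around the furrow, fell by 0.99 on the log2 scale. The determination genes *eya* (−0.15), *so* (−0.06) and *toy* (0.02) were not called and their stages overlapped. The progenitor factor *homothorax* (*hth*, 0.84) and the Pax gene *eyegone* (*eyg*, 0.75) rose. In all, 2 of 12 members rose and 3 fell, with a median of −0.19, against 8.39% and 6.3% of all genes tested. *ey* lost its call without 120h AEL replicate A (−0.97) or C (−0.97), and *hth* lost its call without 96h AEL replicate B (0.84) or 120h AEL replicate A (0.77) or C (0.78). *dac* kept its call only without 96h AEL replicate C or 120h AEL replicate B and lay at −1.10 to −0.88 in the other fits that lacked 1 library. *eyg* kept its call only without 96h AEL replicate B and lay at 0.60 to 0.83 in the other fits that lacked 1 library. *dac* (0.0839) and *eyg* (0.106) had adjusted p-values above the threshold in edgeR's fit with the replicate letter as a block. The retinal determination list had 1 higher and 2 lower, 1 higher and 2 lower, and 1 higher and 5 lower called members when replicate A, B or C of 96h AEL was left out, and 1 lower, 1 higher and 3 lower, and 1 lower when that of 120h AEL was. The count was 1 higher and 2 lower with the replicate block.

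The ligands of the furrow moved in opposite directions. *hedgehog* (*hh*, FBgn0004644), secreted by differentiating photoreceptors, stood at 36.4, 38.6 and 40.6 CPM and then at 65.2, 58.8 and 66.7 CPM. *dpp* (FBgn0000490), the BMP ligand of the furrow, stood at 53.4, 54.4 and 41.6 CPM and then at 30.8, 24.7 and 29.7 CPM. Neither gene overlapped between the stages, and the log2 fold changes were 0.72, SE 0.11, adjusted p = 0.00699 for *hh* and −0.81, SE 0.15, adjusted p = 0.0162 for *dpp*. The repressor *brinker* (*brk*, FBgn0024250), which Dpp signalling keeps off, went from 59.4, 66.4 and 60.9 to 114, 102 and 123 CPM (0.86, SE 0.12, adjusted p = 0.00565), and *Dad*, the inhibitory Smad that Dpp signalling turns on, fell by 0.89 on the log2 scale. The Hedgehog receptor *ptc* (−0.01) and effector *ci* (−0.08) and the Dpp receptor *tkv* (0.43) were not called. These 4 genes were the called ones among 17 members tested, whose median was −0.08. *dpp* lost its call without 96h AEL replicate A (−0.76) or B (−0.76) or 120h AEL replicate C (−0.84). *Dad* kept its call only without 96h AEL replicate C and lay at −0.94 to −0.78 in the other fits that lacked 1 library. *Dad* (0.0617) had an adjusted p-value above the threshold in edgeR's fit with the replicate letter as a block. The Hedgehog and Dpp list had 2 higher, 2 higher, and 2 higher and 2 lower called members when replicate A, B or C of 96h AEL was left out, and 2 higher and 1 lower, 2 higher and 1 lower, and 2 higher when that of 120h AEL was.

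Among proneural and Notch genes, 6 of 24 rose and 0 fell, against 8.39% and 6.3% of all genes tested, with a median of 0.72. The proneural gene of R8, *atonal* (*ato*, FBgn0010433), stood at 63.6, 99.5 and 159.9 CPM and then at 150.2, 203 and 165 CPM, so its stages overlapped and it was not called (0.68, SE 0.33, adjusted p = 0.241). *scute* (*sc*, FBgn0004170), a proneural gene of sensory bristles, stood at 8.09, 7.42 and 14.6 CPM and then at 39.8, 64.0 and 41.8 CPM, with all late libraries above the earlier ones (2.28, SE 0.33, adjusted p = 0.00629). The others that rose were *achaete* (*ac*, 2.10), the next proneural gene of the same complex, the Notch targets *E(spl)malpha-BFM* (2.29), *E(spl)m5-HLH* (2.18) and *E(spl)mbeta-HLH* (1.30), and *neuralized* (*neur*, 0.90), a ubiquitin ligase acting on Notch ligands. *N* (−0.12) and *Su(H)* (0.02), the receptor and its nuclear partner, were not called. *E(spl)malpha-BFM* lost its call without 96h AEL replicate B (2.10) or 120h AEL replicate C (2.39), and *E(spl)m5-HLH* lost its call without 96h AEL replicate B (1.96) or 120h AEL replicate C (2.17). *E(spl)mbeta-HLH* lost its call without 96h AEL replicate B (1.26) or 120h AEL replicate C (1.33), and *neur* lost its call without 96h AEL replicate B (0.88). *ac* kept its call only without 96h AEL replicate C and lay at 1.74 to 2.21 in the other fits that lacked 1 library. *ac* (0.0524) had an adjusted p-value above the threshold in edgeR's fit with the replicate letter as a block. The proneural and Notch list had 5 higher and 1 lower, 1 higher, and 10 higher called members when replicate A, B or C of 96h AEL was left out, and 5 higher, 5 higher, and 2 higher when that of 120h AEL was. The count was 10 higher with block and length correction together, 10 higher and 1 lower with the correction for coding length and 10 higher and 1 lower by DESeq2.

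In EGF receptor and Sevenless signalling, 8 of 25 members rose and 0 fell, against 8.39% and 6.3% of all genes tested. The median was 0.40. *sevenless* (*sev*, FBgn0003366), the receptor tyrosine kinase of the R7 precursor, stood at 62.8, 61.5 and 86.7 CPM and then at 242, 244 and 234 CPM. Its ligand *bride of sevenless* (*boss*, FBgn0000206), made by R8, stood at 0.881, 1.49 and 3.55 CPM and then at 11.6, 13.3 and 12.6 CPM. The late libraries of receptor and ligand agreed closely and lay far above the earlier ones (1.77, SE 0.17, adjusted p = 0.00183, and 2.67, SE 0.53, adjusted p = 0.0187). *roughoid* (*ru*, FBgn0003295), a rhomboid protease that releases EGF ligands, went from 13.2, 21.0 and 45.1 to 151, 286 and 176 CPM (2.96, SE 0.50, adjusted p = 0.0114), and its relative *rho* rose by 1.63. The repressor *tramtrack* (*ttk*, FBgn0003870), which blocks neuronal fate, went from 47.5, 41.4 and 37.1 to 89.8, 81.5 and 90.3 CPM (1.05, SE 0.13, adjusted p = 0.00350). The receptor *Egfr* (−0.01) and the cascade genes *Ras85D* (0.16), *Sos* (0.02), *Raf* (0.00) and *drk* (−0.21) were not called. *boss* lost its call without 96h AEL replicate B (2.48) or 120h AEL replicate A (2.72) or C (2.66), and *ru* lost its call without 96h AEL replicate B (2.79). *rho* lost its call without 96h AEL replicate B (1.56). The EGF receptor and Sevenless list had 5, 2 and 8 called members when replicate A, B or C of 96h AEL was left out, and 5, 9 and 4 when that of 120h AEL was.

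Factors of photoreceptor identity rose in 10 of 16 tested cases and fell in 0, with a median of 0.85, and 15 of them did not overlap between the stages, all higher at 120h AEL, against 18.1% of all genes tested. *salr* (FBgn0000287), a spalt zinc finger factor of R7 and R8, stood at 20.2, 17.9 and 39.8 CPM and then at 108, 109.5 and 107 CPM, and its neighbor *salm* (FBgn0261648) at 22.0, 16.7 and 29.0 CPM and then at 81.0, 75.0 and 77.2 CPM. Both reached nearly one level in the late libraries, at log2 fold changes of 2.06, SE 0.31, adjusted p = 0.00744 and 1.78, SE 0.21, adjusted p = 0.00295. *prospero* (*pros*, FBgn0004595), a homeodomain factor of R7 and cone cells, stood at 5.58, 3.05 and 4.10 CPM and then at 13.8, 19.7 and 16.8 CPM (1.98, SE 0.29, adjusted p = 0.00681). *lozenge* (*lz*, FBgn0002576), the Runx factor of the cells recruited last, stood at 19.7, 32.3 and 34.4 CPM and then at 78.7, 94.2 and 81.3 CPM (1.56, SE 0.23, adjusted p = 0.00644). Neither overlapped between the stages. *runt* (*run*, 3.23), a Runx factor of R7 and R8, the R1 and R6 homeobox gene *B-H1* (0.98) and *glass* (*gl*, 1.37), which is shared by the cells behind the furrow, rose as well. The pan-neuronal gene *elav* was not called (0.72, SE 0.33, adjusted p = 0.222), although its libraries did not overlap. *run* kept its call only without 96h AEL replicate A or C and lay at 2.89 to 3.40 in the other fits that lacked 1 library. *gl* kept its call only without 96h AEL replicate C and lay at 1.11 to 1.52 in the other fits that lacked 1 library. *gl* (0.0522) had an adjusted p-value above the threshold in edgeR's fit with the correction for coding length. The photoreceptor list had 6, 5 and 11 called members when replicate A, B or C of 96h AEL was left out, and 5, 9 and 5 when that of 120h AEL was.

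**Figure D2:**
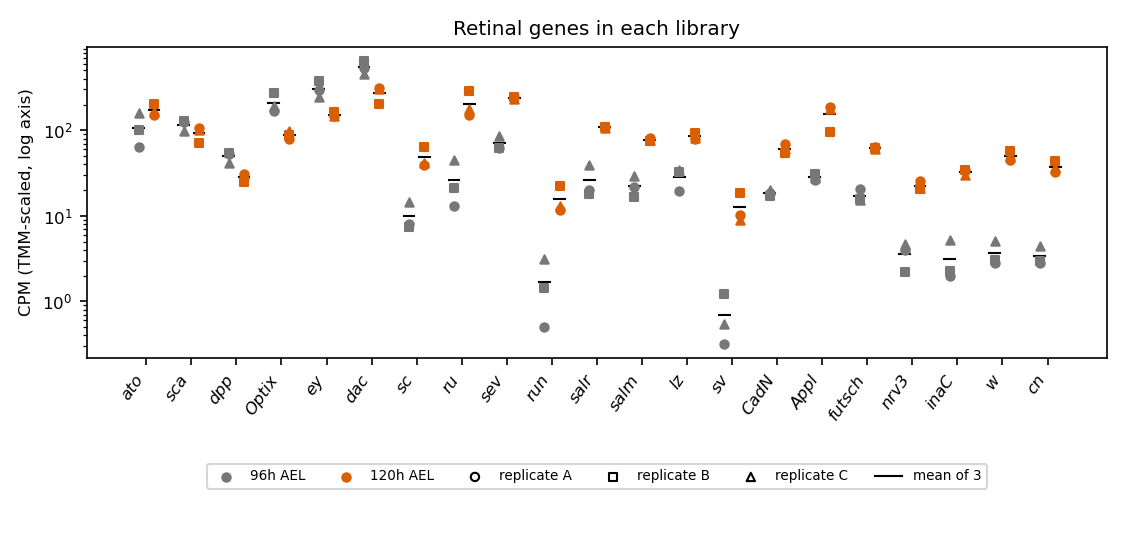
Expression (CPM, log axis) of 21 retinal genes in each of the 6 libraries; gray symbols are 96h AEL, orange symbols 120h AEL, circles, squares and triangles are replicates A, B and C, and bars are means of 3. *Optix*, *ey*, *dac* and *dpp* lie lower at 120h AEL, *ato* and *sca* overlap, and the genes from *sc* to *cn* lie higher in every late library.

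Of the genes of cells recruited later, *sv* and *CadN* rose. *shaven* (*sv*, FBgn0005561), the Pax2 factor of cone and bristle cells, stood at 0.321, 1.24 and 0.546 CPM and then at 10.3, 18.6 and 8.88 CPM. *CadN* (FBgn0015609), the N-cadherin of cone cells and photoreceptor axons, stood at 18.6, 17.2 and 19.9 CPM and then at 69.2, 54.0 and 60.4 CPM. Every late library exceeded the earlier ones in both (4.17, SE 0.61, adjusted p = 0.00675, and 1.72, SE 0.13, adjusted p = 0.00108), and they were the called genes among 9 tested of cone, pigment and interommatidial cells, whose median was 0.51. Among 10 genes of ommatidial rotation and planar polarity 3 rose and 0 fell, with a median of 0.33: the polarity protein *prickle* (*pk*, 1.02), the atypical cadherin *stan* (0.75) and *aos* (0.50), a secreted inhibitor of the EGF receptor. *stan* kept its call only without 120h AEL replicate B and lay at 0.64 to 0.78 in the other fits that lacked 1 library. *aos* kept its call only without 96h AEL replicate C or 120h AEL replicate B and lay at 0.47 to 0.52 in the other fits that lacked 1 library. *stan* (0.0743) and *aos* (0.0693) had adjusted p-values above the threshold in edgeR's fit with the replicate letter as a block. The cone and pigment cell list had 2, 2 and 2 called members when replicate A, B or C of 96h AEL was left out, and 2, 5 and 2 when that of 120h AEL was. The count was 5 with the correction for coding length. The rotation and polarity list had 1 higher, 1 higher, and 2 higher called members when replicate A, B or C of 96h AEL was left out, and 1 higher, 3 higher, and 1 higher when that of 120h AEL was. The count was 1 higher with the replicate block.

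Neuronal and synaptic genes rose in 8 of 16 tested cases and fell in 0, against 8.39% and 6.3% of all genes tested. The median was 1.13. Of the 25 members, 9 did not pass the filter. Without the filter the median over all 25 was 0.66, and 9 rose and 0 fell. *Appl* (FBgn0000108), the amyloid precursor protein of neurons, stood at 26.2, 30.8 and 27.9 CPM and then at 188, 94.8 and 177 CPM. *futsch* (FBgn0259108), a microtubule-associated protein of axons, stood at 20.4, 15.8 and 15.4 CPM and then at 63.5, 62.9 and 60.4 CPM. Replicate B was the lowest late library for *Appl*, and the stages were far apart for both (2.44, SE 0.27, adjusted p = 0.00267, and 1.85, SE 0.14, adjusted p = 0.00100). The sodium pump subunit *nrv3* (FBgn0032946) went from 3.95, 2.18 and 4.64 to 25.8, 20.8 and 21.0 CPM (2.65, SE 0.31, adjusted p = 0.00312), and the adhesion molecule *Nrt* (1.64) and the synaptic vesicle protein *nSyb* (2.43) rose. *nSyb* lost its call without 96h AEL replicate B (2.18) or 120h AEL replicate C (2.47). The neuronal list had 7, 4 and 8 called members when replicate A, B or C of 96h AEL was left out, and 5, 7 and 4 when that of 120h AEL was. The count was 5 with the replicate block.

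Some genes of the mature eye were already higher. *white* (*w*, FBgn0003996), a transporter of pigment precursors, stood at 2.83, 3.02 and 5.14 CPM and then at 45.5, 57.4 and 48.6 CPM. *cinnabar* (*cn*, FBgn0000337), the kynurenine 3-monooxygenase of brown pigment synthesis, stood at 2.78, 2.98 and 4.46 CPM and then at 32.6, 43.7 and 36.5 CPM. Each late library lay several times above each earlier one in both genes (3.79, SE 0.27, adjusted p = 8.39e-04, and 3.47, SE 0.24, adjusted p = 8.39e-04). With *Rab32* (1.94), a GTPase of pigment granules, and *kar* (1.03), a gene of brown pigment, 4 of 17 tested eye pigment genes rose and 0 fell. The shares over all genes tested were 8.39% and 6.3%, and the median of the list was 0.31. *kar* kept its call only without 120h AEL replicate B and lay at 0.85 to 1.08 in the other fits that lacked 1 library. *kar* (0.0803) had an adjusted p-value above the threshold in edgeR's fit with the replicate letter as a block.

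In phototransduction 3 of 16 tested genes rose and 0 fell, with a median of −0.33 (without the filter 0.17, over all 30 members). *inaC* (FBgn0004784), the protein kinase C of photoreceptors, stood at 2.00, 2.25 and 5.19 CPM and then at 34.1, 34.8 and 29.9 CPM (3.40, SE 0.40, adjusted p = 0.00300). The chromophore genes *ninaB* (4.23) and *santa-maria* (1.88) rose as well. The rhodopsin *Rh6* read 13.1, 2.11 and 121 CPM and then 2.04, 7.47 and 1.95 CPM, and the arrestin *Arr1* read 11.4, 1.24 and 74.9 CPM and then 0.902, 2.26 and 0.957 CPM. Neither was called, and both were highest in 96h AEL replicate C. That library also had the highest sums of fat body, midgut, ring gland and salivary gland glue markers. Which tissue the reads of *Rh6* and *Arr1* came from was not tested. *ninaB* lost its call without 96h AEL replicate A (4.05) or 120h AEL replicate C (4.31), and *santa-maria* lost its call without 96h AEL replicate B (1.69) or 120h AEL replicate A (1.81) or C (1.97). The phototransduction list had 2 higher, 2 higher and 1 lower, and 3 higher and 1 lower called members when replicate A, B or C of 96h AEL was left out, and 2 higher, 3 higher, and 1 higher when that of 120h AEL was. The count was 3 higher and 4 lower by DESeq2.

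Glia enter the eye disc through the optic stalk. The pan-glial factor *repo* stood at 17.6, 20.2 and 20.3 CPM and then at 21.7, 22.1 and 20.8 CPM and was not called (0.15, SE 0.13, adjusted p = 0.476). *moody* (FBgn0025631), a receptor of blood-brain barrier glia, stood at 10.8, 10.8 and 11.6 CPM and then at 20.7, 21.8 and 22.7 CPM, and *thisbe* (*ths*, FBgn0033652), an FGF ligand, at 7.32, 6.87 and 6.19 CPM and then at 18.7, 15.5 and 18.4 CPM. These 2 genes did not overlap between the stages (0.98, SE 0.14, adjusted p = 0.00598, and 1.36, SE 0.18, adjusted p = 0.00464). Of 15 tested genes of the glial list 4 rose and 0 fell, against 8.39% and 6.3% of all genes tested. The median was 0.15. In bulk samples a change in the number of cells of a type and a change in RNA per cell cannot be told apart, here and in all lists. The glial list had 2 higher, 2 higher, and 4 higher called members when replicate A, B or C of 96h AEL was left out, and 3 higher, 3 higher, and 2 higher when that of 120h AEL was. The count was 2 higher with the replicate block and 5 higher and 2 lower by DESeq2.

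Genes of antennal and head fate mostly rose where they were called, with 1 fall. *bab2* (FBgn0025525), a factor of distal antennal segments, stood at 7.53, 4.98 and 6.74 CPM and then at 38, 26.5 and 40.6 CPM. *Deformed* (*Dfd*, FBgn0000439), the Hox gene of the maxillary region, stood at 11.1, 8.15 and 12.6 CPM and then at 31.1, 29.9 and 27.6 CPM. All late libraries of both lay above the earlier ones (2.45, SE 0.24, adjusted p = 0.00190, and 1.48, SE 0.19, adjusted p = 0.00430). *engrailed* (*en*, 1.46), a factor of posterior compartments, rose, and the Iroquois factor *caup* of the dorsal eye fell by 0.78 on the log2 scale. The antennal selector *Dll* was not called (0.55). Of 16 tested members 4 rose and 1 fell, with a median of 0.55. Among all genes tested 8.39% rose and 6.3% fell, so the single fall was near that share. *en* lost its call without 96h AEL replicate A (1.45) or 120h AEL replicate C (1.44), and *caup* lost its call without 120h AEL replicate A (−0.78) or C (−0.81). The antennal and head list had 2 higher and 1 lower, 3 higher and 1 lower, and 7 higher and 1 lower called members when replicate A, B or C of 96h AEL was left out, and 3 higher, 4 higher and 1 lower, and 2 higher when that of 120h AEL was.

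Effectors of the ecdysone response rose in 7 of 14 tested cases and fell in 1, against 8.39% and 6.3% of all genes tested. The median was 0.85. *ImpE2* (FBgn0001254), an ecdysone-inducible gene of imaginal discs, stood at 17.3, 10.5 and 10.6 CPM and then at 1093, 2813 and 1410.1 CPM. *ImpE1* (FBgn0001253) stood at 16.6, 9.20 and 13.7 CPM and then at 159, 212 and 174 CPM, and *ImpE3* (FBgn0001255) at 8.41, 10 and 14.4 CPM and then at 106, 279.7 and 146 CPM. All 3 were highest in replicate B of 120h AEL, and the stages were far apart, with log2 fold changes of 7.11, SE 0.51, adjusted p = 8.39e-04 for *ImpE2*, 3.78, SE 0.26, adjusted p = 7.81e-04 for *ImpE1* and 4.02, SE 0.43, adjusted p = 0.00243 for *ImpE3*. The serine proteases *Stubble* (*Sb*, 2.83), needed for disc eversion, and *Notopleural* (*Np*, 1.57) rose, as did *ImpL2* (1.98), a secreted binding protein of insulin-like peptides. *Oatp74D* (FBgn0036732), the importer of ecdysone, went the other way, from 219, 213 and 252 to 94.1, 88.7 and 97.4 CPM (−1.29, SE 0.12, adjusted p = 0.00186). The metalloproteases *Mmp1* (−0.29) and *Mmp2* (0.09) were not called.

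Of the ecdysone receptor and the nuclear factors of its cascade, 4 of 16 tested rose and 0 fell, with a median of 0.27. The shares over all genes tested were 8.39% and 6.3%. *br*, a factor planned for this list, matched no symbol of the count table and is not counted. *Blimp-1* (FBgn0035625), an ecdysone-induced repressor that times prepupal development, stood at 0.721, 0.182 and 0.182 CPM and then at 10.2, 33.5 and 11.8 CPM (5.59, SE 0.80, adjusted p = 0.00618). *Hr3* (FBgn0000448), an orphan nuclear receptor of the cascade, stood at 5.07, 5.6 and 8.97 CPM and then at 12.5, 49.0 and 16.8 CPM, without overlap but not called (2.00, SE 0.56, adjusted p = 0.0615). Both were highest in replicate B of 120h AEL. The receptor *EcR* (FBgn0000546) stood at 126, 129 and 88.8 CPM and then at 82.7, 33.5 and 73.7 CPM, lower in every late library and not called (−0.86, SE 0.34, adjusted p = 0.168). Its partner *usp* (−0.04), the early gene *Eip74EF* (0.30) and the prepupal factor *ftz-f1* (−0.35) were not called either. *Eip78C* (1.62) and *Eip75B* (0.89), nuclear receptors of the early response, and *Kr-h1* (0.89), a zinc finger factor of the juvenile hormone response, rose. *Eip78C* lost its call without 96h AEL replicate B (1.41), and *Eip75B* lost its call without 96h AEL replicate B (0.81) or 120h AEL replicate A (0.81) or C (0.80). *Eip78C* (0.0625) had an adjusted p-value above the threshold in edgeR's fit with the replicate letter as a block. The nuclear factor list had 4 higher, 2 higher, and 4 higher and 1 lower called members when replicate A, B or C of 96h AEL was left out, and 4 higher, 5 higher, and 3 higher when that of 120h AEL was. The count was 6 higher and 1 lower by DESeq2.

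In a list of small heat shock genes, several of which ecdysone induces without heat, 4 of 9 members rose and 0 fell. Among all genes tested 8.39% rose and 6.3% fell. The list also held *Hsp83* and *CG4456*, which do not encode small heat shock proteins. Its median was −0.33. This turned to 0.30 without 96h AEL replicate C and was −0.09 without replicate B of 120h AEL and −0.10 with the replicate block. *Hsp67Ba* (FBgn0001227) stood at 11.9, 15.3 and 38.2 CPM and then at 279.8, 291 and 302 CPM, and *Hsp27* (FBgn0001226) at 401, 637 and 843 CPM and then at 2079, 2280.1 and 2234 CPM. The late libraries were close to each other and above all earlier ones (3.74, SE 0.46, adjusted p = 0.00377, and 1.81, SE 0.27, adjusted p = 0.00751). *Hsp22* read 58.3, 150.4 and 229 CPM and then 82.1, 34.4 and 70.5 CPM, and it was not called (−1.22, SE 0.53, adjusted p = 0.199). The small heat shock list had 4, 2 and 4 called members when replicate A, B or C of 96h AEL was left out, and 2, 2 and 2 when that of 120h AEL was.

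**Figure D3:**
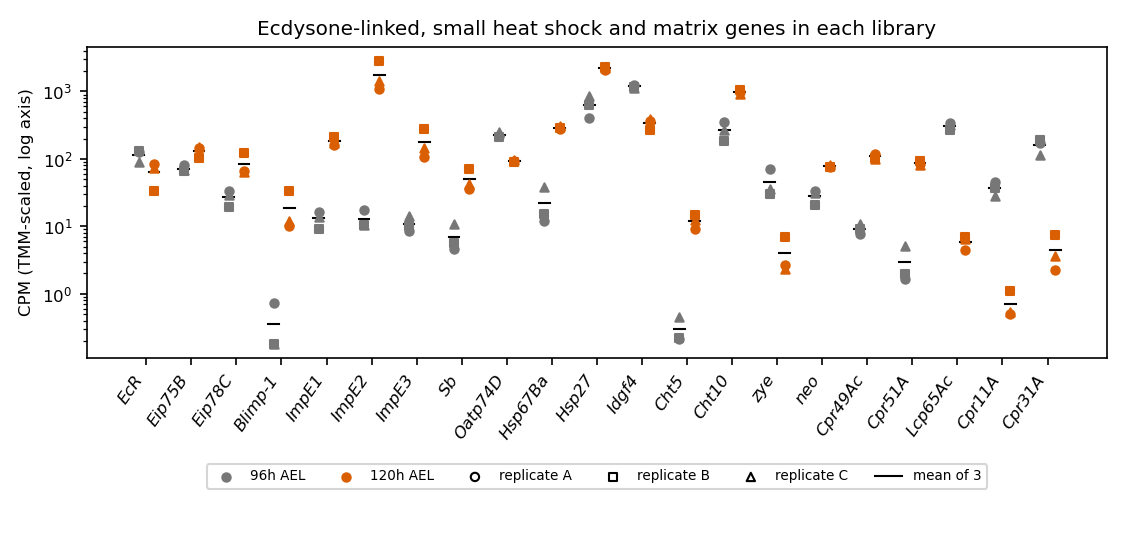
Expression (CPM, log axis) of 21 ecdysone-linked, small heat shock and matrix genes in each library, with symbols as in the plot of retinal genes. *ImpE2* rises to 1093 CPM or more in every late library, while *Lcp65Ac*, *Cpr11A* and *Cpr31A* drop to 7.52 CPM or less.

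Cuticle proteins moved in both directions, with 13 of 51 tested higher and 23 lower, against 8.39% and 6.3% of all genes tested, and a median of −1.78. Of the 120 members, the others did not pass the filter, and without the filter the median was −0.56. *Cpr49Ac* (FBgn0033725) stood at 7.72, 9.02 and 10.9 CPM and then at 119, 105 and 101 CPM, and *Cpr51A* (FBgn0033942) at 1.63, 1.96 and 5.14 CPM and then at 84.2, 92.1 and 81.9 CPM. Both rose to a similar level in all late libraries (3.56, SE 0.17, adjusted p = 2.77e-04, and 4.91, SE 0.46, adjusted p = 0.00183). *Lcp65Ac* (FBgn0020642), a larval cuticle protein, stood at 339, 272 and 321 CPM and then at 4.47, 6.83 and 6.43 CPM, and *Cpr11A* (FBgn0030394) at 46.0, 36.8 and 28.1 CPM and then at 0.501, 1.10 and 0.536 CPM. *Cpr31A* (FBgn0053302) stood at 171, 190.0 and 116 CPM and then at 2.27, 7.52 and 3.6 CPM. These 3 genes fell to a small part of their earlier level in all late libraries, with log2 fold changes of −5.72, SE 0.23, adjusted p = 1.35e-04 for *Lcp65Ac*, −5.74, SE 0.38, adjusted p = 7.81e-04 for *Cpr11A* and −5.18, SE 0.49, adjusted p = 0.00187 for *Cpr31A*. *Vajk4* (5.13) and *Cpr97Ea* (3.26) were further rises. Reads of *Lcp65Ag3* (−4.80), a fall with one of the smallest p-values, may be shared with its near-identical copy *Lcp65Ag2*. The cuticle list had 9 higher and 21 lower, 7 higher and 17 lower, and 11 higher and 19 lower called members when replicate A, B or C of 96h AEL was left out, and 12 higher and 18 lower, 9 higher and 21 lower, and 9 higher and 16 lower when that of 120h AEL was.

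Genes of the chitin layer rose in 6 of 18 tested cases and fell in 1, against 8.39% and 6.3% of all genes tested. The median was 0.31. *Cht5* (FBgn0038180), a chitinase of molting, stood at 0.214, 0.218 and 0.455 CPM and then at 9.02, 14.7 and 12.2 CPM. *Cht10* (FBgn0250907), another chitinase, stood at 349.8, 187 and 266 CPM and then at 964, 1056 and 914 CPM. *Cht5* rose from a trace and *Cht10* from a level already high (5.35, SE 0.45, adjusted p = 0.00136, and 1.87, SE 0.24, adjusted p = 0.00458). The chitin deacetylase *Cda4* rose by 1.22, and the chitin-binding protein *obst-E* of the puparium fell by 2.32 on the log2 scale. The chitin synthase *kkv* stood at 626, 592 and 394 CPM and then at 344, 200.5 and 321 CPM, without overlap and not called (−0.90, SE 0.27, adjusted p = 0.0793). The chitin list had 5 higher and 1 lower, 3 higher and 1 lower, and 6 higher and 2 lower called members when replicate A, B or C of 96h AEL was left out, and 5 higher and 1 lower, 6 higher and 1 lower, and 5 higher and 1 lower when that of 120h AEL was.

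Zona pellucida (ZP) domain proteins tie the apical membrane to this matrix. In a list of them, 4 of 9 tested members rose and 2 fell, against 8.39% and 6.3% of all genes tested. The median was 0.51. The list also held *trn* and *zpg*, which are not ZP proteins. *zye* (FBgn0036985) stood at 71.0, 29.8 and 35.8 CPM and then at 2.67, 7.0 and 2.34 CPM, and *neo* (FBgn0039704) at 33.0, 21.1 and 30.9 CPM and then at 76.5, 76.2 and 80.6 CPM. The stages did not overlap for either (−3.53, SE 0.55, adjusted p = 0.00855, and 1.46, SE 0.18, adjusted p = 0.00387). On the basal side, *Multiplexin* (*Mp*, FBgn0260660), the collagen XV and XVIII homolog, went from 12.0, 8.40 and 8.06 to 64.9, 54.8 and 66.3 CPM (2.70, SE 0.19, adjusted p = 8.39e-04), the only one of 9 basement membrane genes tested that rose, while 2 fell and the median was 0.83. The sum of these genes stood at 1534, 1311 and 1526 CPM and then at 2440.0, 1081 and 2251 CPM, and among the 120h AEL libraries it was lowest in replicate B, as the fat body and hemocyte sums were, and the part of those tissues in the result was not tested. The ZP list had 3 higher and 1 lower, 1 higher and 1 lower, and 5 higher and 2 lower called members when replicate A, B or C of 96h AEL was left out, and 3 higher and 1 lower, 4 higher and 1 lower, and 1 higher and 1 lower when that of 120h AEL was. The basement membrane list had 1 higher and 1 lower, 1 higher, and 2 higher and 2 lower called members when replicate A, B or C of 96h AEL was left out, and 1 higher and 1 lower, 3 higher and 1 lower, and 1 higher when that of 120h AEL was.

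Genes of DNA replication fell in 15 of 35 cases and rose in 0. The log2 fold change was under 0 in 34 of them, the median was −0.58, and 29 were lower without overlap between the stages, against 15.8% of all genes tested. *PolA2* (FBgn0005696), a subunit of DNA polymerase alpha, stood at 58.3, 68.5 and 53.4 CPM and then at 29.2, 24.8 and 31.5 CPM. *Orc2* (FBgn0015270), of the origin recognition complex, stood at 58.3, 62.5 and 58.0 CPM and then at 36.6, 35.4 and 35.8 CPM. Both fell in every late library (−1.08, SE 0.15, adjusted p = 0.00528, and −0.73, SE 0.10, adjusted p = 0.00457). The sliding clamp *PCNA* (−0.48, SE 0.14, adjusted p = 0.0743) and the S phase regulators *CycE* (−0.40) and *E2f1* (−0.35) were not called. The replication list had 6, 2 and 21 called members when replicate A, B or C of 96h AEL was left out, and 5, 6 and 3 when that of 120h AEL was. The count was 5 with the replicate block, 25 with the correction for coding length, 24 by DESeq2 and 6 when libraries were scaled by their totals alone.

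Of the mitosis genes 3 of 33 fell and 0 rose, against 6.3% of all genes tested that fell, with a log2 fold change under 0 in 31 of them and a median of −0.39. The called genes were the centromeric histone *cid* (−0.82), the kinesin *sub* (−0.79) and *Incenp* (−0.52) of the chromosomal passenger complex. *string* (*stg*, FBgn0003525), the Cdc25 phosphatase that triggers mitosis in the disc, stood at 297, 389.6 and 409 CPM and then at 304, 386 and 327 CPM, so its stages overlapped, and neither it (−0.11) nor *CycB* (−0.38) was called. *cid* kept its call only without 96h AEL replicate A and lay at −0.88 to −0.76 in the other fits that lacked 1 library. *sub* kept its call only without 96h AEL replicate C and lay at −0.88 to −0.65 in the other fits that lacked 1 library. *Incenp* kept its call only without 96h AEL replicate C and lay at −0.57 to −0.48 in the other fits that lacked 1 library. *cid* (0.0650), *sub* (0.0631) and *Incenp* (0.128) had adjusted p-values above the threshold in edgeR's fit with the replicate letter as a block. The mitosis list had 1, 0 and 6 called members when replicate A, B or C of 96h AEL was left out, and 0, 0 and 0 when that of 120h AEL was. The count was 0 with the replicate block, 7 with block and length correction together, 14 with the correction for coding length, 14 by DESeq2 and 1 when libraries were scaled by their totals alone.

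**Figure D4:**
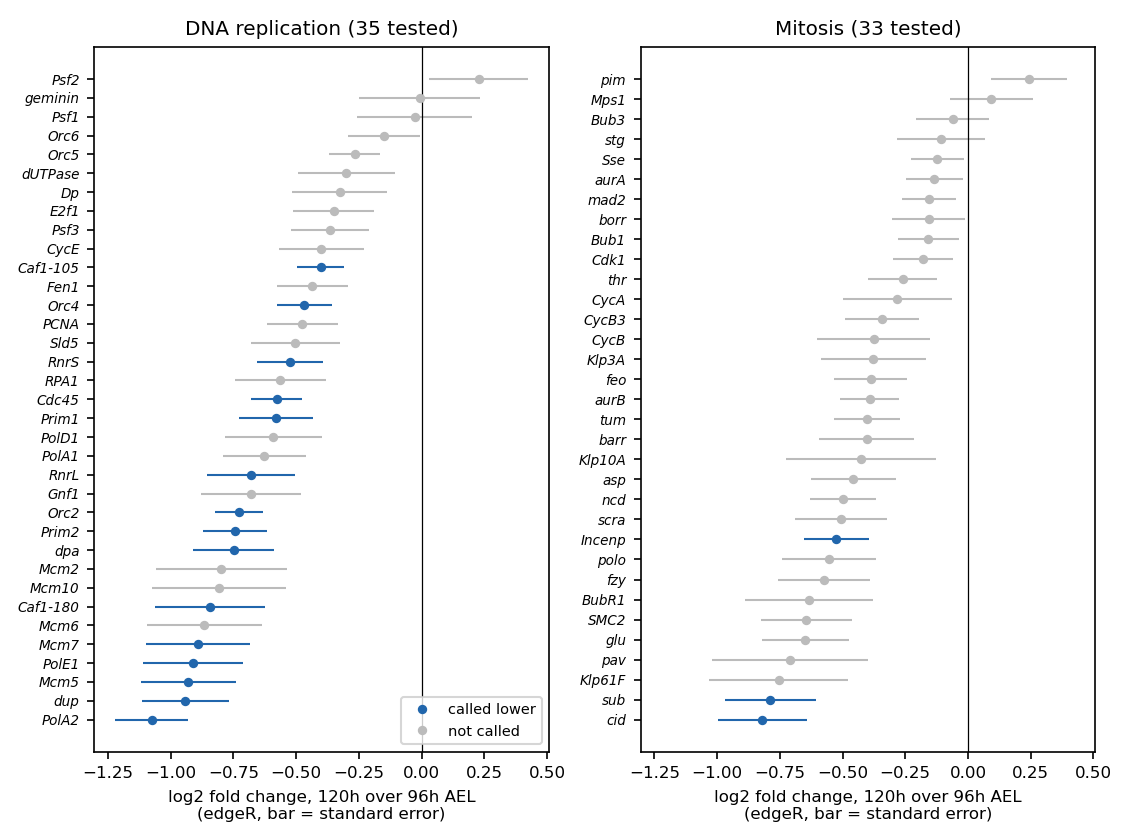
Log2 fold change (120h over 96h AEL) with its standard error for each tested gene of DNA replication (left) and mitosis (right); blue points were called lower and gray points not called. 34 of 35 and 31 of 33 points lie left of 0, and those of DNA replication reach −1.08.

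Among metabolic genes, 4 of 18 of a citric acid cycle list fell and 0 rose, with a median of −0.60. Over all genes tested 6.3% fell and 8.39% rose. The list also held *Mdh1*, *Men*, *Idh* and *Pepck1*, linked enzymes outside the cycle itself. Of the nuclear genes of the respiratory chain and ATP synthase, 4 of 57 fell and 0 rose, with a median of −0.27. This list was thus near the 6.3% of all genes tested that fell. Its median was −0.09 without 96h AEL replicate C, and −0.14 or −0.41 when replicate A or B of 120h AEL was left out. The 13 genes of the mitochondrial genome are not in this list. They summed to 20880, 9663 and 27900 CPM and then to 32750, 88580 and 17680 CPM, with overlap between the stages. *Mdh2* (FBgn0262559), the mitochondrial malate dehydrogenase, stood at 281, 323 and 333 CPM and then at 162, 196 and 194 CPM, all late libraries lower (−0.77, SE 0.14, adjusted p = 0.0150). The medians of glycolysis (−0.06), cytoplasmic ribosomal proteins (−0.15) and the proteasome (−0.01) were nearer to that of all genes. *Mdh2* lost its call without 96h AEL replicate B (−0.76) or 120h AEL replicate A (−0.68) or C (−0.80). The citric acid cycle list had 2 lower, 0, and 8 lower called members when replicate A, B or C of 96h AEL was left out, and 0, 1 higher and 2 lower, and 0 when that of 120h AEL was. The count was 1 lower with the replicate block, 2 lower with block and length correction together, 8 lower with the correction for coding length, 1 higher and 10 lower by DESeq2 and 2 lower when libraries were scaled by their totals alone. The nuclear respiratory chain list had 1, 0 and 4 called members when replicate A, B or C of 96h AEL was left out, and 0, 2 and 0 when that of 120h AEL was. The count was 0 with the replicate block, 17 with block and length correction together, 37 with the correction for coding length and 13 by DESeq2.

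Imaginal disc growth factors, secreted relatives of chitinases, fell in 2 of 5 tested cases and rose in 0, with a median of −1.26. *Idgf4* (FBgn0026415) stood at 1259, 1168 and 1143 CPM and then at 362, 270.0 and 389 CPM, far apart between the stages (−1.81, SE 0.18, adjusted p = 0.00190). Among brakes of the cell cycle and regulators of death, 3 of 17 rose and 1 fell, with a median of 0.19. The shares over all genes tested were 8.39% and 6.3%, so the single fall was near its share. The caspase inhibitor *Diap1* rose by 0.91 and the death gene *reaper* (*rpr*) fell by 1.23 on the log2 scale. *Diap1* lost its call without 96h AEL replicate A (0.81) or B (0.92) or 120h AEL replicate C (0.94), and *rpr* lost its call without 96h AEL replicate B (−1.25) or 120h AEL replicate A (−1.20) or C (−1.13). The growth factor list had 1, 2 and 2 called members when replicate A, B or C of 96h AEL was left out, and 1, 2 and 1 when that of 120h AEL was. The list of brakes and death had 1 higher and 1 lower, 0, and 2 higher and 1 lower called members when replicate A, B or C of 96h AEL was left out, and 1 higher, 2 higher and 1 lower, and 0 when that of 120h AEL was.

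Outside these lists, the smallest p-values belonged in part to genes without a described role. *CG34377* (FBgn0263117) stood at 5.72, 5.38 and 7.74 CPM and then at 76.3, 80.7 and 72.7 CPM, and *X11Lbeta* (FBgn0052677), an adaptor of the X11 family, at 26.5, 25.7 and 27.4 CPM and then at 105, 89.0 and 100.2 CPM. The replicates of both were close together and the stages far apart (3.61, SE 0.17, adjusted p = 2.77e-04, and 1.88, SE 0.11, adjusted p = 5.92e-04). *Gpo1* (FBgn0022160), the mitochondrial glycerophosphate oxidase, stood at 58.6, 60.8 and 50.5 CPM and then at 16.7, 15.0 and 16.4 CPM, lower in all late libraries (−1.82, SE 0.12, adjusted p = 7.81e-04). The rises also included *CG4586* (3.98), *CG17754* (1.82) and FBgn0000313 (3.94), which has no symbol in the annotation used, and the falls *CG7203* (−5.38), *CG17134* (−6.69), *CG13545* (−4.16), *CG12310* (−4.72), *CG30457* (−5.67) and *CG14419* (−5.43). Without a symbol, FBgn0000313 could not be matched to the lists, so it may be a planned list member with a described role.

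Salivary gland glue genes, which mark a tissue other than the disc, were among the largest rises and falls: 8 of 11 tested rose and 3 fell, with a median of 7.77. *Sgs3* (FBgn0003373) stood at 0.588, 0.582 and 0.0910 CPM and then at 126, 74.4 and 94.3 CPM (7.77, SE 0.51, adjusted p = 7.81e-04), and *Sgs7* rose by 9.21. *ng3* (FBgn0010295), a glue gene of earlier L3, stood at 258, 329.9 and 565 CPM and then at 1.24, 5.09 and 2.64 CPM (−7.04, SE 0.64, adjusted p = 0.00165), and *ng1* (−7.21) and *ng2* (−7.23) fell likewise. The summed glue markers stood at 531, 561 and 1063 CPM and then at 419, 332 and 343 CPM, and the part of this tissue in other results was not tested. Reads of *Sgs5* and *Sgs5bis*, and of *ng1* and *ng2*, may be shared between near-identical copies.

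For the genes with few counts in a stage, the ratio of the stages is given with an interval for counting error. *Sgs5* had 1 count at 96h AEL and 3322 counts at 120h AEL, a ratio of 3936 (exact 95% interval 706 to 155500.0), and *Sgs5bis* had 4 and 2399, a ratio of 711 (exact 95% interval 277 to 2610.0). *Sgs8* had a ratio of 345 (exact 95% interval 167 to 859) and *Sgs4* of 230.1 (exact 95% interval 111 to 573), which are also glue genes. *Eig71Ee*, a glue gene that is ecdysone-inducible, rose with a ratio of 549.5 (exact 95% interval 266 to 1368), and *CG4950* with a ratio of 861 (exact 95% interval 336 to 3163). The ratio of 96h to 120h AEL was 525 (exact 95% interval 254 to 1306) for *CG32564* and 277 (exact 95% interval 94.5 to 1346) for *lcs*, which fell. *CG11350* (−7.49), *CG44040* (−7.27), *CG7299* (−7.01) and *CG32071* (−6.81) fell as well. *CG9021* stood at 28.0, 0.289 and 31.1 CPM at 120h AEL, nearly absent in replicate B, with a fitted value of 8.28 and a ratio of 392 (exact 95% interval 168 to 1210.0). *CG9021* kept its call only without 120h AEL replicate B and lay at 7.56 to 9.80 in the other fits that lacked 1 library. *CG9021* (0.0847) had an adjusted p-value above the threshold in edgeR's fit with the replicate letter as a block.

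Markers of other larval tissues varied between replicates. The 7 fat body genes summed to 2227, 2573 and 7952 CPM at 96h AEL and to 5770.0, 166 and 5026 CPM at 120h AEL, and the 9 hemocyte genes to 123, 264 and 659.6 CPM and then to 2552, 444 and 2265 CPM. Both sums overlapped between the stages and were lowest in replicate B at 120h AEL. All 9 hemocyte genes had a log2 fold change above 0, with a median of 2.07. Of them 1 was called, and 3 were higher without overlap between the stages, against 18.1% of all genes tested. Without 96h AEL replicate C the median was 3.42 with 4 called, and without 120h AEL replicate B it was 2.78 with 3 called. In the other fits that lacked 1 library, 0 hemocyte genes were called. *Fbp1* (FBgn0000639), an ecdysone-induced receptor of the fat body, stood at 0.881, 1.20 and 1.68 CPM and then at 1433, 36.6 and 1236 CPM (9.51, SE 1.51, adjusted p = 0.00884), the called gene among the 7 fat body genes. The 14 muscle genes summed to 10190.0, 4828 and 3165 CPM and then to 1229, 586 and 1145 CPM, and 11 of 14 fell, with a median of −2.65. The myosin light chain *Mlc2* (FBgn0002773) stood at 1353, 833 and 731 CPM and then at 203, 69.5 and 189.5 CPM (−2.66, SE 0.46, adjusted p = 0.0121). The 5 ring gland genes summed to 289, 28.5 and 632 CPM and then to 248, 22.6 and 223 CPM, low in both B libraries. The 12 midgut genes summed to 0.401, 94.8 and 1355 CPM and then to 77.1, 37.5 and 93.2 CPM, and 7 of them were at 0 in 96h AEL replicate A. No marker of fat body, hemocytes, muscle or ring gland was at 0 in any library, and the part of these tissues in the results was not tested beyond the fits that left out 1 library. *Fbp1* lost its call without 96h AEL replicate B (9.46). The muscle list had 6, 4 and 12 called members when replicate A, B or C of 96h AEL was left out, and 5, 8 and 4 when that of 120h AEL was.

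**Figure D5:**
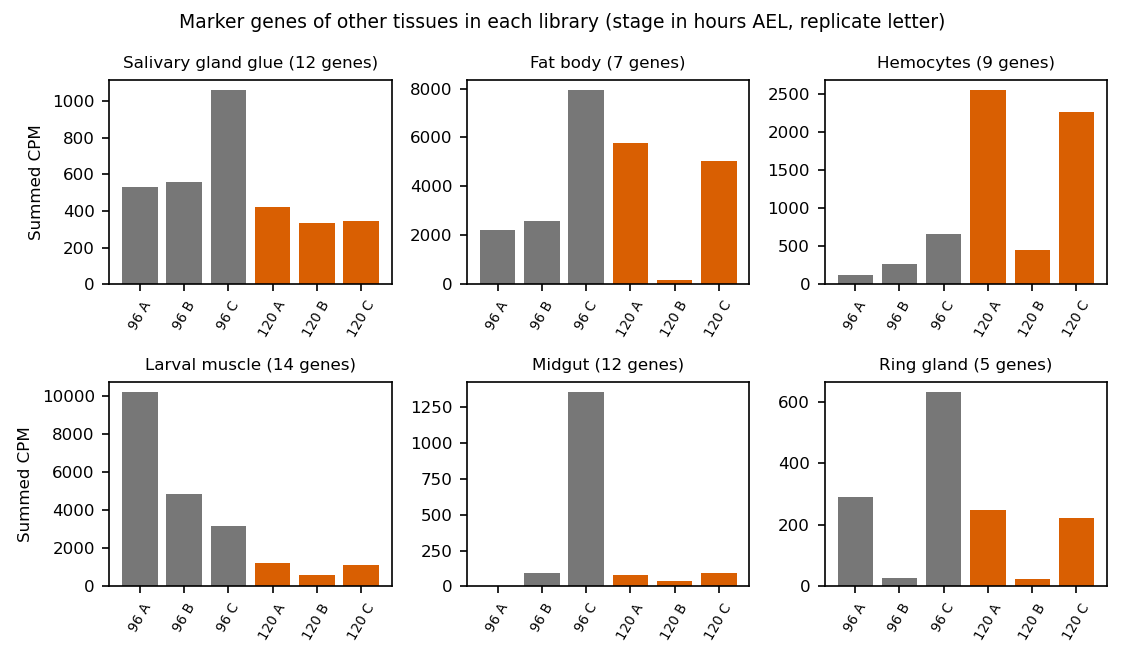
Summed CPM of marker genes of other tissues in each library (gray, 96h AEL; orange, 120h AEL), each panel on its own linear axis from 0. Fat body and hemocyte sums at 120h AEL are lowest in replicate B, every muscle sum at 96h AEL exceeds those at 120h AEL, and the midgut sum is highest in 96h AEL replicate C.

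Levels at 72h AEL, where discs came from both sexes, are given beside those of the called genes as a description. The 72h AEL level was the mean of replicate C and of the average of A and B, so C weighed as much as A and B together. Of the 688 genes that rose from 96h to 120h AEL, 433 (62.9%) were lower at 72h than at 96h AEL, and their median levels were 7.76, 9.11 and 28.2 CPM at 72h, 96h and 120h AEL. Of the 517 genes that fell, 155 (30.0%) were lower at 72h than at 96h AEL, with medians of 80.2, 37.8 and 7.23 CPM. Among genes without a call the share lower at 72h AEL was 57.6%. The genes were called on the same 96h AEL values, so these shares and medians are partly set by that choice. The authors' 13 expression clusters were made from these same libraries and serve as a description only. Rising genes made up 89.4% of the tested genes of cluster 13, 51.1% of cluster 12 and 37.4% of cluster 5, and falling genes 45.9% of cluster 1, 44.1% of cluster 8 and 31.5% of cluster 2.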

How the data were processed

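Eye-antennal disc RNA was sequenced as 50 bp single-end reads. The authors used Bowtie2 and, as reference, 1 coding sequence for every gene, the longest in FlyBase r5.55, and deposited raw read counts per gene, made with SAMtools 0.1.19 without strand, together with coding lengths and the cluster number of each gene. Overlapping and near-identical genes are therefore uncertain. Symbols came from the BDGP6 annotation for 13406 of 13676 genes and from the supplementary tables for 5, and 265 had none. Some planned list members matched no symbol and are missing from the counts. They include *br*, *Dl*, *da*, *chp*, *Mcm3*, *Orc1*, *LanB2*, *trol* and *Fum1*, so no list covers its pathway in full. Some genes belong to more than 1 list, among them *aos*, *elav*, *sens*, *ro*, *ss* and *oc*. Counts of such lists are therefore not independent of each other. Coordinates are not given, since the builds differ, and sequences were not used here.

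Counts of the 6 libraries were scaled by TMM, filtered in the manner of HTSFilter (genes above 134 normalized counts in a library) and compared with edgeR 4.0.16 (quasi-likelihood, two-sided, no covariate; R 4.3.3) with Benjamini-Hochberg adjustment. The code was tested on simulated counts. SE was derived from the F statistic, as the size of the log2 value over its root. Intervals and floors cover counting error only. Alternatives were DESeq2 1.42.0, other scalings, filters and thresholds, all 9 libraries in 1 fit, an offset for the trend of counts with coding length in each library, the replicate letter as a block, and leaving out each library, where the 2 libraries left are assumed to vary like the other stage. No libraries of one stage were duplicates (chi-square of 36.2 per gene or more). Libraries of the same letter deviated together (r = 0.171, 0.125 and 0.116 for A, B and C, against −0.195 to −0.00219 for other pairs). Deviations were taken from the mean of the 3 libraries of a stage. Positive values for some pairs therefore force negative ones for others, so the contrast is a description only. The labels do not say what the letter marks. It entered only the alternative fit with a block, so the main p-values and standard errors take no pairing into account. p-values measure the spread between these libraries.

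Named are the 10 largest called rises and falls that reached a mean of 10 CPM in 1 stage, the 10 of each with the smallest p-values among those over 2-fold, and list members that were called with large changes or that define a list. Members and lists were chosen with earlier results of these data known, so no list was tested.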

Additional observations from a re-analysis of the deposited data

How the results depend on the processing

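DESeq2 called 1873 genes (935 higher and 938 lower) instead of 1205, an adjusted p-value under 0.01 left 511, and leaving out 1 library gave 539 (without 96h AEL replicate B) to 1336 (without 96h AEL replicate C). Over 2-fold, 463 genes passed at 0.01, and leaving out 1 library gave 476 to 944, lowest and highest without the same libraries, against 858. Of the list members, 190 genes were called (109 higher and 81 lower), 300 (125 and 175) with the correction for coding length and 89 at 0.01, and leaving out 1 library gave 95 to 212; DESeq2 put 47.0% of its calls in these lists higher and the length correction 41.7%, against 57.4%. With the replicate letter as a block, 880 genes were called, 743 of them over 2-fold, and 149 in the lists; of 226 genes followed one by one, 50 lost their call under the block and the call of no other changed. None of these 226 genes changed sign under any alternative run. The median log2 fold change of the shortest coding sequences minus that of the longest was 0.182 (−0.0373 with the length correction, and −0.0463 to 0.486 when 1 library was left out). The cause of these differences was not tested. Genes under about 10 CPM carry a counting error above 5.17% to 7.61%, and each stage has 3 libraries of pooled discs.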

Other observations

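The genes named here were chosen after their values were seen. They were not counted as groups. *robo3* (FBgn0041097), a Slit receptor, stood at 1.18, 0.655 and 2.05 CPM and then at 27.6, 18.8 and 25.5 CPM, and *gogo* (FBgn0052227), a receptor of photoreceptor axons, at 7.21, 7.38 and 14.9 CPM and then at 91.9, 103 and 90.5 CPM. The stages did not overlap in either (edgeR: 4.22, SE 0.44, adjusted p = 0.00239, and 3.28, SE 0.31, adjusted p = 0.00187). *dpr12* (3.82), a cell surface protein of the Dpr family, the ARID factor *retn* (3.5), the zinc finger factor *peb* of photoreceptors (1.51), the sex determination factor *dsx* (2.40) and the serpin *Spn43Aa* (4.57) rose too.

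Among falls, *chinmo* (FBgn0086758), a factor of juvenile cell identity, stood at 30.1, 18.5 and 7.97 CPM and then at 2.04, 1.56 and 1.57 CPM (edgeR: −3.45, SE 0.51, adjusted p = 0.00705), and was lower in all late libraries. The RNA-binding protein *Imp* fell by 2.16 on the log2 scale and *upd1*, a JAK/STAT ligand of eye growth, by 2.09. The heat-inducible *Hsp70Bb*, whose copies share sequence, stood at 371, 1084 and 1509.6 CPM and then at 270.3, 147 and 240.0 CPM, and *Hsp68* at 164, 519 and 666 CPM and then at 82.7, 57.4 and 89.7 CPM. The libraries of 96h AEL spread widely in both (edgeR: −2.17, SE 0.52, adjusted p = 0.0367, and −2.55, SE 0.51, adjusted p = 0.0202). *Hsp70Bb* kept its call only without 96h AEL replicate A and lay at −2.35 to −1.73 in the other fits that lacked 1 library. *Hsp68* kept its call only without 96h AEL replicate A or C and lay at −2.68 to −2.38 in the other fits that lacked 1 library. *Hsp70Bb* (0.0952) had an adjusted p-value above the threshold in edgeR's fit with the replicate letter as a block.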
